A study of Mus musculus with 16 samples.

Results

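Expression of 9 genes that mark the principal cells of the renal collecting duct was followed in mouse kidney after glycerol-induced rhabdomyolysis. The genes were taken by symbol from the deposited matrix of normalized counts, which lists 20525 genes, and all 9 were found: Aqp2, Aqp3, Aqp4, Avpr2, Scnn1a, Scnn1b, Scnn1g, Fxyd4 and Hsd11b2. Each library was made from total RNA of frozen kidney sections 30 µm thick from mice aged 8 weeks on a background labelled C56BL/6. Mice were wild type (WT) or labelled C3-/-, the genotype that targets complement component C3, and received either PBS or an intramuscular thigh injection of 50% glycerol at 7.5 ml/kg, a treatment that breaks down skeletal muscle and injures the kidney. The 4 groups, WT with PBS, WT with glycerol, C3-/- with PBS and C3-/- with glycerol, held 4 libraries each. Neither sex nor sampling time is given in the labels. Nothing there says whether each library of a group is a different animal, and the spread behind the p-values may therefore be technical.

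Principal cells reabsorb water and sodium in the last segments of the nephron. Vasopressin binds the receptor encoded by Avpr2, which raises cyclic AMP, moves the water channel aquaporin-2 to the apical membrane and increases Aqp2 transcription, and water then leaves the cell through aquaporin-3 and aquaporin-4. Aldosterone acts through the mineralocorticoid receptor on the epithelial sodium channel ENaC, whose alpha, beta and gamma subunits are encoded by Scnn1a, Scnn1b and Scnn1g, and the enzyme encoded by Hsd11b2 inactivates glucocorticoids that would otherwise occupy that receptor. Several of these genes are also used by neighbouring cells, such as those of the connecting tubule. In whole-kidney RNA, fewer principal cells and less RNA per cell cannot be told apart.

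The libraries were not uniform within groups. Their descriptions end in a suffix number, from 1 to 13 for 13 of them. In the other 3 the numbers 3, 4 and 5 occur again: replicate 4 of WT glycerol, and replicates 1 and 3 of C3-/- glycerol. On the first principal component of all tested genes, which held 45% of the variance, these 3 libraries scored 96.4 to 220.4 and the rest -58.6 to 39.5, so results that rest on them are also given for the 13 libraries alone. All 3 are glycerol libraries, so an effect of the repeated numbers and a stronger glycerol response cannot be told apart. Leaving them out, or fitting a term for them, may therefore also remove part of that response. The Y-linked gene Ddx3y was present in 11 libraries and near 0 in 5, namely C3-/- PBS replicates 1, 2 and 3 and C3-/- glycerol replicates 1 and 2, so male and female tissue is unevenly spread over the genotypes. Each C3-/- group holds both kinds, so its libraries do not all come from the same animal. For the WT groups that stays unknown. C3 itself was not lower under the C3-/- label, at 563.8 to 1140 against 334.9 to 470.5 in WT after PBS. Which part of the gene was removed is a detail not given in the sources used here. Its total signal therefore checks nothing, and every direction for C3-/- below rests on the label. Injury markers followed the treatment, since Havcr1 and Lcn2 rose in both genotypes. After glycerol both were lower under the C3-/- label than in WT. Havcr1 was at 1088 to 9458 against 28050 to 57980 in WT (limma adjusted p = 0.000706). Lcn2 was at 435.9 to 7394 against 11430 to 32840 (limma adjusted p = 0.0115). Normalized counts summed to 25.81 to 38.39 M per library, and the sequencing depth is unknown.

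Of the 9 genes, 6 had a promoter entry in the RefSeq table (GRCm38.p6), and the 250 bases before the start are shown for the 3 members in which a searched motif was found. Capitals mark the motif matches. In Aqp2 (chr15:99578806-99579055, plus strand) they mark, in order, the core of the cyclic AMP response element, a GATA motif and a steroid receptor core motif. In Aqp3 (chr4:41098184-41098433, minus strand) they mark a TATA box, and in Avpr2 (chrX:73891852-73892101, plus strand) a pair of steroid receptor core motifs followed by a TATA box on the reverse strand.
Aqp2: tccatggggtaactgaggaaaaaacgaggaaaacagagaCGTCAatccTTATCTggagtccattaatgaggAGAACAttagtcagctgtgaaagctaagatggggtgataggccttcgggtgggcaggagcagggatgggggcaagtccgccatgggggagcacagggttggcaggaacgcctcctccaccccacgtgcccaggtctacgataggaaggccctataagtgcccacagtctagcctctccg
Aqp3: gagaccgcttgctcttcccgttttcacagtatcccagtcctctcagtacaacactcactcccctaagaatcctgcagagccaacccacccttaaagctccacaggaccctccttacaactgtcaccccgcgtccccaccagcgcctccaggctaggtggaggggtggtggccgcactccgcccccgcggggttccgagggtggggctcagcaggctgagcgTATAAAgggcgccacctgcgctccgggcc
Avpr2: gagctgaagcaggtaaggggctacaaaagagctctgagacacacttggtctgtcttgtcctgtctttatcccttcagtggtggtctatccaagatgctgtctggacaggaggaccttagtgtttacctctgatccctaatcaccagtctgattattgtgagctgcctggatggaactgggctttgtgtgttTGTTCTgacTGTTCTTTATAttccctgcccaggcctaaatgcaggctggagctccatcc
The search covered both strands. The cyclic AMP response core TGACG stands 211 bases before the Aqp2 start and was present in 17.8% of all 32851 promoter entries. The GATA motif AGATAA was present in 9.99%, the steroid receptor core AGAACA in 16.1% and the TATA box TATAAA in 12.4%. The full cyclic AMP element TGACGTCA, present in 1.55%, holds the core within it. That element and TGGAAA, a core bound by the tonicity factor NFAT5 and present in 18.6%, matched no member's window, and Scnn1b, Scnn1g and Fxyd4 had no match of any kind. These matches describe letters, not binding sites. The Fxyd4 window (chr6:117937336-117937585, minus strand) lies inside the gene span given below, so it does not precede the start of that span.

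In WT kidney, most of the principal cell genes were lower after glycerol. By limma on log2(normalized count + 1), adjusted over 18035 tested genes and called at an adjusted p below 0.05, Aqp3, Aqp4, Avpr2, Scnn1a and Hsd11b2 fell, 5 of the 9, against 13.3% of all tested genes called lower (25.9% in either direction). The genes Aqp2, Scnn1b, Scnn1g and Fxyd4 did not pass. The median log2 difference of the 9 was -0.81, against -0.11 over all tested genes, and all 9 passed the filter on low values. For 7 of the 9 the glycerol and PBS libraries did not overlap, all with glycerol lower, where 22.4% of tested genes showed this. In libraries labelled C3-/-, limma called none of the 9 (5.63% of tested genes were called in either direction, 1.96% lower), with a median of -0.5 against -0.06. In these libraries 3 of the 9 had an unadjusted limma p below 0.05, as did 4457 of the 18035 tested genes. There the groups did not overlap for Aqp3 and Hsd11b2, both lower after glycerol, against 9.71% of tested genes lower without overlap. Within the 13 libraries, 7 fell in WT (29.4% of tested genes called lower) and 1, Hsd11b2, fell under the C3-/- label (10.8% called lower), where the median of the 9 was -0.16. With terms for the repeated numbers and for Y-linked transcripts that median was -0.06 and none passed, where 3393 of 18035 tested genes passed in either direction.

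**Figure D1:**
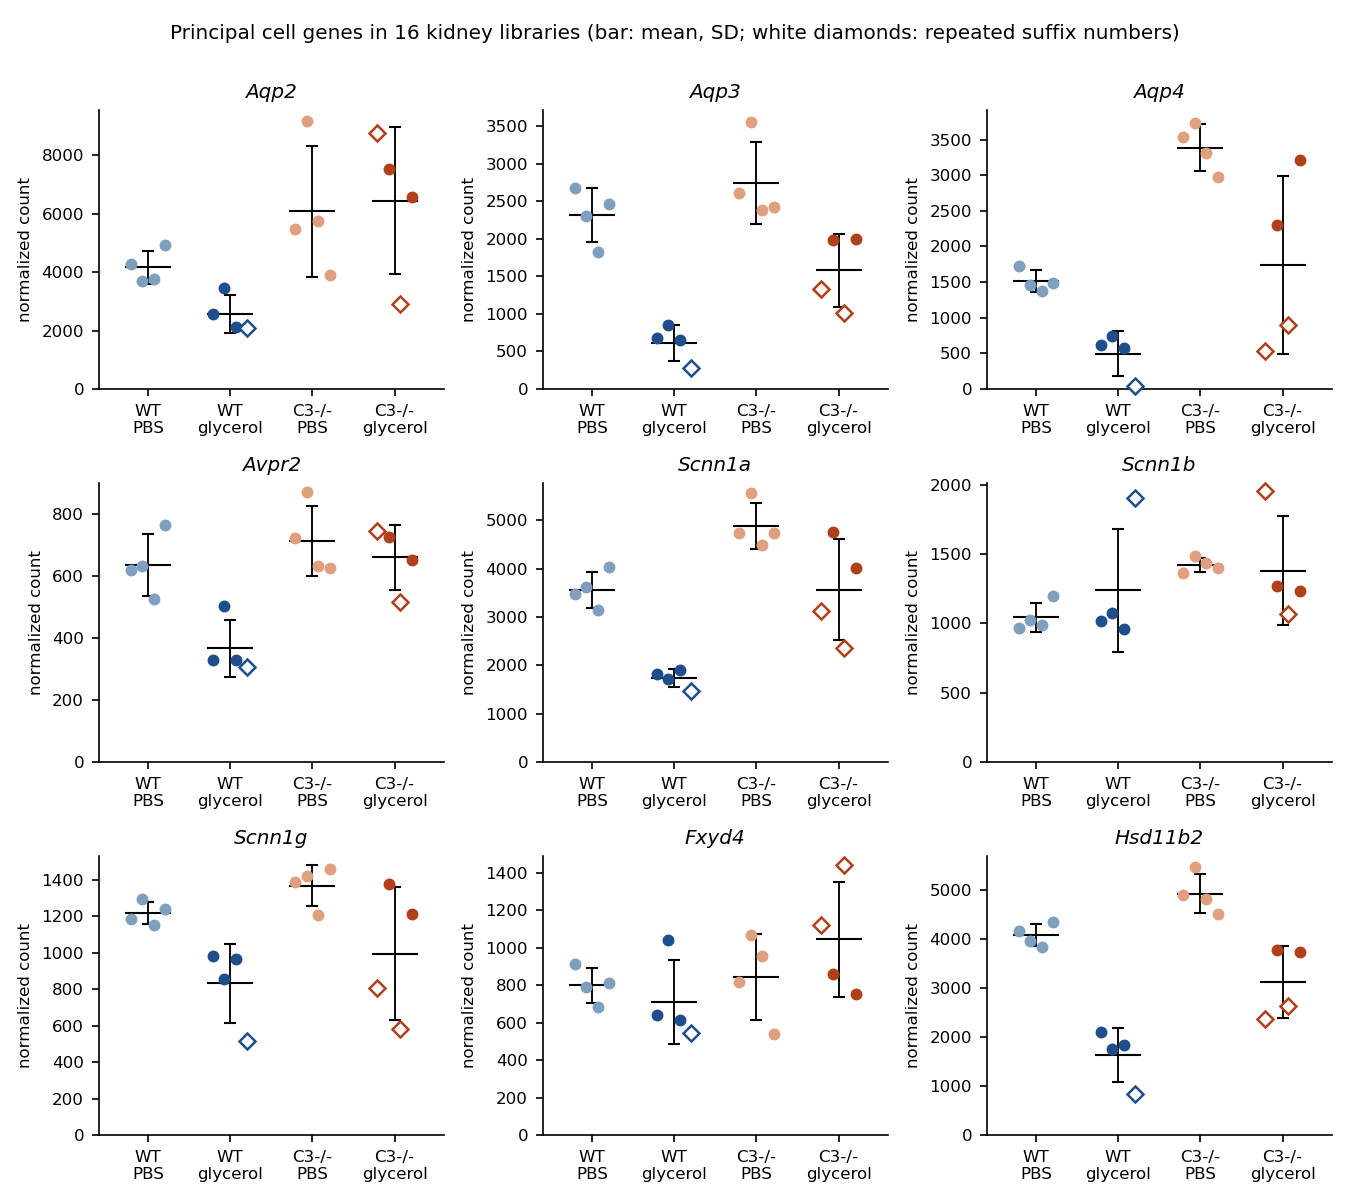
Normalized count (vertical axis, linear from 0) of each of the 9 genes in the 16 libraries, by group. Horizontal bars and error bars are the mean and SD of 4 libraries, filled circles are the 13 libraries numbered 1 to 13, and white diamonds are the 3 libraries with repeated numbers. After glycerol the WT libraries lie below their PBS controls for Aqp3 (283.92 to 854.58 against 1827.8 to 2678), and they overlap them for Scnn1b and Fxyd4.

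Avpr2 (ENSMUSG00000031390; GRCm38 chromosome X, 73892102 to 73895502) encodes the vasopressin V2 receptor. In WT its normalized counts were 620.69, 633.37, 525.89 and 766.21 after PBS and 328.67, 504.78, 329.44 and 307.27 after glycerol (replicates 1 to 4). Every glycerol library was below every PBS library, with replicate 2 the highest of them. In libraries labelled C3-/- they were 724.68, 871.9, 634.43 and 626.77 after PBS and 747.32, 728.12, 515.69 and 653.07 after glycerol, which overlap. The limma log2 difference was -0.81 ± 0.19 (SE, adjusted p = 0.0072) in WT and -0.11 ± 0.19 (adjusted p = 0.711) under the C3-/- label. Of the 2886 exonic bases of Avpr2, 2347 overlap exons of Arhgap4 on the opposite strand, and the strand setting of the counting is unknown, so reads of these genes cannot be told apart. Arhgap4 was at 294.2 to 331.1 in WT after PBS and 167.4 to 729.8 after glycerol (the highest in replicate 4, with a repeated number), a difference of -0.29 over all 16 libraries (limma adjusted p = 0.645). Arhgap4 fell by 0.79 within the 13 libraries (limma adjusted p = 0.000809), where Avpr2 fell by 0.73 (adjusted p = 0.00312).

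Aqp2 (ENSMUSG00000023013; chromosome 15, 99579055 to 99584547), the apical vasopressin-regulated water channel gene, had WT values of 4263.4, 3699.9, 3767.6 and 4911.9 after PBS and 2555.7, 3470.5, 2134.9 and 2091.4 after glycerol. The WT groups did not overlap, and the glycerol mean was 61.6% of the PBS mean. The log2 difference of -0.72 ± 0.32 did not pass over all 16 libraries (limma adjusted p = 0.112), and within the 13 libraries it was -0.63 and passed (adjusted p = 0.0393). The C3-/- libraries had 5469.7, 9176.2, 5751.8 and 3883.3 after PBS and 8765.2, 7516.4, 2905.6 and 6579.2 after glycerol. These ranges overlap widely, with the lowest library, glycerol replicate 3, and one of the highest, glycerol replicate 1, both among the libraries with repeated numbers. The difference there was 0.04 ± 0.32 (limma adjusted p = 0.941).

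Aqp3 (ENSMUSG00000028435; chromosome 4, 41092722 to 41098183) encodes a basolateral channel for water and glycerol. Its WT values were 2678, 2309.8, 1827.8 and 2466.8 after PBS and 685.63, 854.58, 651.06 and 283.92 after glycerol. No glycerol library reached the lowest PBS library, and the glycerol mean was 26.7% of the PBS mean. Aqp3 fell by 2.0 ± 0.31 on the log2 scale (limma adjusted p = 0.000333), and by 1.66 within the 13 libraries (adjusted p = 3.88e-06). In C3-/- libraries it was at 2608.1, 3554.6, 2382 and 2430.8 after PBS and 1331.6, 1980.6, 1014.4 and 1994.5 after glycerol. These groups did not overlap either, and the 2 lowest libraries were those with repeated numbers. The difference of -0.83 ± 0.31 did not pass (limma adjusted p = 0.119, unadjusted p = 0.016), nor did the -0.45 within the 13 libraries (adjusted p = 0.0907). The authors' deposited table for the same comparison lists a log2 fold change of -0.8 with an adjusted p of 0.0479.

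Aqp4 (ENSMUSG00000024411; chromosome 18) encodes the other basolateral water channel of these cells. WT values were 1731.6, 1461.4, 1373.8 and 1493.6 after PBS and 620.15, 748.76, 578.24 and 41.12 after glycerol. The groups were separate, and replicate 4, a library with a repeated number and 3374 genes listed at 0, was far below the others. Aqp4 fell by 2.21 ± 0.74 (limma adjusted p = 0.0392). Without WT glycerol replicate 4 the difference was -1.23 and no longer passed (adjusted p = 0.0532), and leaving out any single WT PBS library also ended the call (adjusted p of 0.0863, 0.0768, 0.072 and 0.0763 for replicates 1 to 4). Within the 13 libraries the difference was again -1.23 and passed (adjusted p = 9.46e-06). Values labelled C3-/- were 3538.8, 3729.7, 3303.9 and 2976.2 after PBS and 539.68, 2305, 891.95 and 3215.9 after glycerol. Replicates 1 and 3, with repeated numbers, were low, and replicates 2 and 4 lay nearer to the controls. The difference was -1.3 ± 0.74 (limma adjusted p = 0.272) over all libraries and -0.31 (adjusted p = 0.152) within the 13.

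Among the ENaC genes only the alpha subunit passed the test in WT over all 16 libraries. Scnn1a (ENSMUSG00000030340; chromosome 6, 125320659 to 125344943) was at 3469.1, 3628, 3138.5 and 4027.7 after PBS and at 1828.5, 1712.5, 1910 and 1474.9 after glycerol. The groups did not overlap and varied little within themselves, and the glycerol mean was 48.6% of the PBS mean. Scnn1a fell by 1.04 ± 0.19 (limma adjusted p = 0.00119). Labelled C3-/-, it was at 4735.1, 5568.8, 4487.8 and 4746.6 after PBS and 3132.9, 4762.1, 2353.5 and 4013.4 after glycerol, with replicate 2 inside the PBS range. That difference of -0.5 ± 0.19 did not pass (limma adjusted p = 0.132), and it was -0.16 within the 13 libraries (adjusted p = 0.359).

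Scnn1b (ENSMUSG00000030873; chromosome 7, 121865038 to 121918514), the beta subunit gene, was at 966.93, 1022.5, 989.53 and 1199.5 in WT after PBS and at 1018.9, 1077.1, 958.78 and 1902.6 after glycerol. Of the glycerol libraries, 3 lay within or next to the PBS range, and replicate 4, which has a repeated number, was far above it. The log2 difference was 0.19 ± 0.22 (limma adjusted p = 0.536), and -0.03 within the 13 libraries. Scnn1b under the C3-/- label was at 1366.1, 1488.3, 1433.6 and 1400.7 after PBS and 1955.4, 1273.3, 1065.2 and 1232 after glycerol, a difference of -0.08 (adjusted p = 0.821). Scnn1g (ENSMUSG00000000216; chromosome 7, 121734479 to 121768475), the gamma subunit gene on the same chromosome, had WT values of 1187.2, 1295.2, 1154.4 and 1240.2 after PBS and 984.95, 856.21, 968.43 and 517.52 after glycerol. All glycerol libraries were lower, by a log2 difference of -0.59 ± 0.25 that did not pass (limma adjusted p = 0.0973), while the -0.38 within the 13 libraries did (adjusted p = 0.00223). The C3-/- values were 1386.9, 1423, 1204.7 and 1461.7 after PBS and 806.89, 1376.4, 580.37 and 1213.4 after glycerol. Only the libraries with repeated numbers left the PBS range, and the differences were -0.54 (limma adjusted p = 0.202) over all libraries and -0.08 within the 13.

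Hsd11b2 (ENSMUSG00000031891; chromosome 8, 105518755 to 105523988), which encodes the glucocorticoid-inactivating enzyme, had WT values of 4154.4, 3944, 3840.6 and 4345 after PBS and 2105.8, 1761.4, 1828.9 and 826.87 after glycerol. The groups were clearly separate, with replicate 4 again the lowest. Hsd11b2 fell by 1.4 ± 0.25 (limma adjusted p = 0.000919), and by 1.1 within the 13 libraries. For C3-/- it was at 4883.8, 5453.7, 4807.9 and 4510.5 after PBS and 2368, 3772.7, 2623.4 and 3727.3 after glycerol. No glycerol library reached the PBS range, and the difference of -0.68 ± 0.25 did not pass over all libraries (limma adjusted p = 0.114), whereas the -0.39 ± 0.09 within the 13 passed (adjusted p = 0.011). The authors' deposited table lists -0.65 with an adjusted p of 0.0444 for this comparison. Fxyd4 (ENSMUSG00000004988; chromosome 6, 117933559 to 117937692), a small regulator of the sodium pump, was at 685.07 to 915.62 in WT after PBS and 547.04 to 1040.4 after glycerol, and under the C3-/- label at 540.45 to 1070.5 and 755.83 to 1443.4. Its groups overlapped in both genotypes, and neither difference passed (-0.21 ± 0.26 in WT, limma adjusted p = 0.569, and 0.31 ± 0.26, adjusted p = 0.434).

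**Figure D2:**
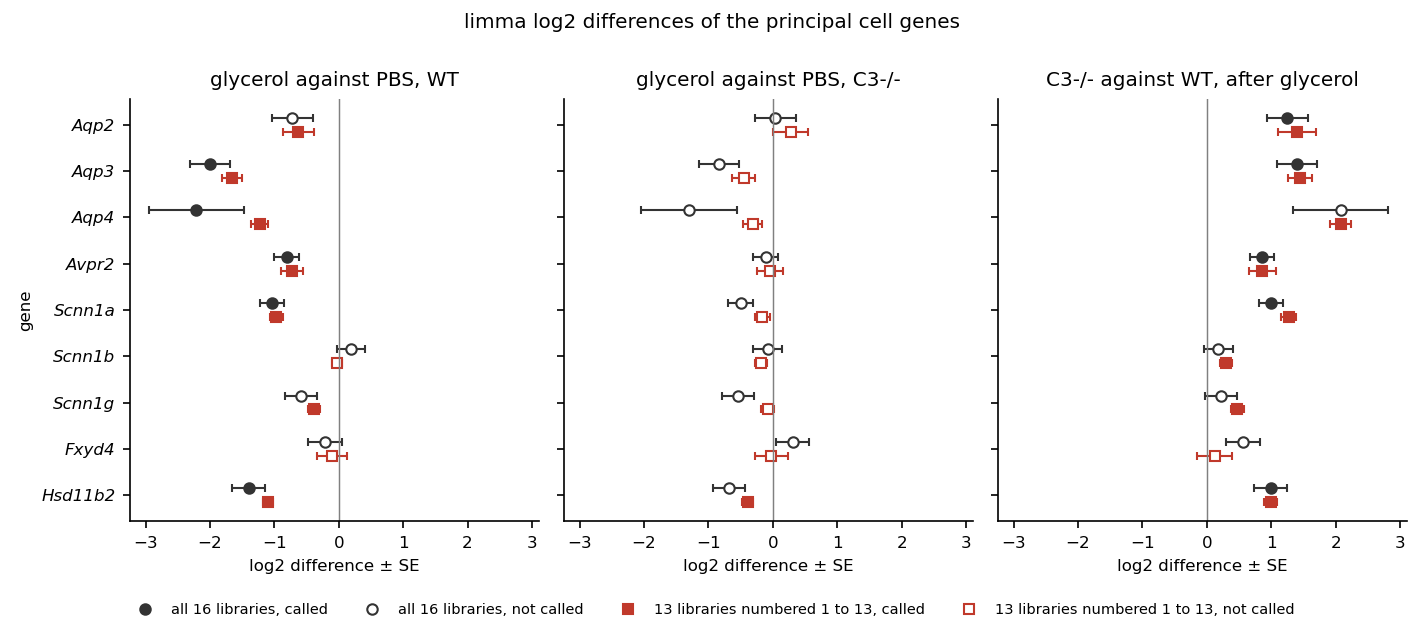
Log2 differences (horizontal axis, with SE) of the 9 genes for glycerol against PBS in each genotype and for C3-/- against WT after glycerol, from limma over all 16 libraries (circles) and over the 13 libraries numbered 1 to 13 (squares). Filled symbols passed an adjusted p of 0.05. In WT the largest differences over all libraries are those of Aqp4 (-2.21) and Aqp3 (-2.0), and the Aqp4 value moves to -1.23 within the 13 libraries.

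After glycerol, several principal cell genes were higher in libraries labelled C3-/- than in WT. By limma, Aqp2, Aqp3, Avpr2, Scnn1a and Hsd11b2 were higher, 5 of the 9, against 6.38% of tested genes called higher (11.2% in either direction). Aqp3 differed by 1.4 ± 0.31 (adjusted p = 0.00767), with 1014.4 to 1994.5 against 283.92 to 854.58. Scnn1a differed by 1.00 ± 0.19 (adjusted p = 0.0033), with 2353.5 to 4762.1 against 1474.9 to 1910. Neither pair of ranges overlaps. Avpr2 differed by 0.86 ± 0.19 (adjusted p = 0.00968) and Hsd11b2 by 0.99 ± 0.25 (adjusted p = 0.0169), also without overlap, which together makes 4 of the 9 genes higher without overlap against 6.21% of tested genes. Aqp2 differed by 1.25 ± 0.32 (limma adjusted p = 0.0196), its ranges overlapped, and the call ended without WT glycerol replicate 3 or C3-/- glycerol replicate 1 or 2 (adjusted p of 0.0508, 0.0504 and 0.0523). Aqp4 did not pass (2.08 ± 0.74, adjusted p = 0.0888), and the same difference of 2.08 ± 0.16 within the 13 libraries did (adjusted p = 3.94e-06). The remaining differences were 0.56 for Fxyd4, 0.22 for Scnn1g and 0.18 for Scnn1b. Fitted on the 8 glycerol libraries alone, 0 of the 9 passed in limma, where 278 of 16923 tested genes passed in either direction. Within the 13 libraries 8 passed (15.7% of tested genes called higher). All WT glycerol libraries carried Y-linked transcripts, and C3-/- glycerol replicates 1 and 2 did not. With terms for repeated numbers and Y-linked transcripts, the 5 called genes differed by 0.93 (Aqp2), 1.56 (Aqp3), 0.77 (Avpr2), 1.02 (Scnn1a) and 1.19 (Hsd11b2). All 5 passed there, as did 3482 of 18035 tested genes as higher, and Scnn1b was at -0.09. Scnn1a and Hsd11b2 were also higher without overlap after PBS, as given below. The authors' deposited table for this comparison has 6 of the genes higher at an adjusted p below 0.05, with Aqp4 as the addition at a log2 fold change of 1.79. That table calls 16.81% of its genes in either direction, more than the 11.2% called here.

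The difference between the glycerol responses of the genotypes was tested directly. Over all 16 libraries limma called none of the 9, and 0.438% of tested genes were called. An unadjusted p below 0.05 was reached by 2 of the 9, and by 1889 of the 18035 tested genes. Aqp3 differed by 1.17 ± 0.43 (limma adjusted p = 0.315) and Avpr2 by 0.69 ± 0.28 (limma adjusted p = 0.363). The lower values in WT and the lack of calls under the C3-/- label are therefore not shown to differ at this setting. Within the 13 libraries 4 genes passed with a smaller fall under the C3-/- label, where 4.99% of tested genes passed in that direction. They were Aqp3 (1.22, limma adjusted p = 0.00963), Aqp4 (0.92, 0.0148), Scnn1a (0.81, 0.00805) and Hsd11b2 (0.72, 0.00591). With terms for the repeated numbers and for Y-linked transcripts, 6 genes passed (4.97% of tested genes in that direction), with Aqp2 and Avpr2 added. The C3-/- glycerol group within the 13 libraries holds replicates 2 and 4, 1 without and 1 with Y-linked transcripts. On the first principal component they scored -25.5 and -28.9, nearest of all glycerol libraries to the PBS libraries (-58.6 to -52.9). WT glycerol replicates 1 to 3 scored 2.3, 39.5 and -2.3. The part of this choice of libraries in the smaller fall was not tested.

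After PBS, none of the 9 genes passed between the genotypes over all 16 libraries in limma (2.23% of tested genes called). Scnn1a alone had an unadjusted limma p below 0.05 (0.0307), which 1884 of the 18035 tested genes had. Yet the ranges of Aqp4, Scnn1a, Scnn1b and Hsd11b2 did not overlap, all higher under the C3-/- label, where 13.9% of tested genes were higher without overlap. Aqp4 was at 1373.8 to 1731.6 in WT and 2976.2 to 3729.7 under the C3-/- label, a log2 difference of 1.16 ± 0.74 (limma adjusted p = 0.742). The same difference passed within the 13 libraries, with an SE of 0.12 (adjusted p = 5.17e-05). The PBS libraries are the same in both fits, and each fit shares its estimate of spread over PBS and glycerol groups. Fitted on the PBS libraries alone, Aqp4 had an SE of 0.09 (limma adjusted p = 3.18e-05). With terms for repeated numbers and Y-linked transcripts Aqp4 differed by 1.34 and did not pass (adjusted p = 0.0593). Replicate 4, the C3-/- PBS library with Y-linked transcripts, had an Aqp4 value of 2976.2, above every WT library, whereas its Aqp2 value of 3883.3 lay inside the WT range. Scnn1a and Scnn1b each differed by 0.45 and Hsd11b2 by 0.27, and all 3 passed within the 13 libraries (limma adjusted p of 0.006, 0.00155 and 0.0284), which makes 4 of the 9 there against 9.35% of tested genes called higher. With both terms these differences were 0.30, 0.24 and 0.25 (adjusted p of 0.287, 0.565 and 0.407). None of the 9 passed in that fit, where 628 of 18035 tested genes passed in either direction. All WT libraries carried Y-linked transcripts and 3 of the 4 C3-/- PBS libraries did not, and the part of this in the differences was not tested beyond the fit with that term. The term for Y-linked transcripts is estimated within the C3-/- groups alone, where replicate 4 is the only PBS library that carries them.

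Levels were compared between genes as normalized counts per kilobase of merged exons. In WT after PBS, Aqp2 was highest with 2932 ± 394.8 per kilobase (SD, n = 4), followed by Hsd11b2 with 2213 ± 122, Aqp3 with 1269 ± 197.7 and Scnn1a with 863 ± 89.4, none of which overlapped its neighbour in this order. Fxyd4 (409.1), Scnn1g (407.6) and Scnn1b (396.7) could not be ordered, since their libraries overlapped, and neither could Aqp4 (243.1) and Avpr2 (220.6). After glycerol in WT, Aqp2 remained highest (1806 ± 451.1), and Aqp3 stood sixth in order at 338.3 ± 131.4, overlapping its neighbours Fxyd4 and Scnn1g. Scnn1b (470.7 ± 168.9) and Scnn1a (419 ± 45.8) overlapped in that group, where after PBS Scnn1a was above Scnn1b in every library. By mean, the order under the C3-/- label began with Aqp2, Hsd11b2, Aqp3 and Scnn1a after either treatment, although Aqp2 overlapped Hsd11b2 and Aqp3 overlapped Scnn1a.

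**Figure D3:**
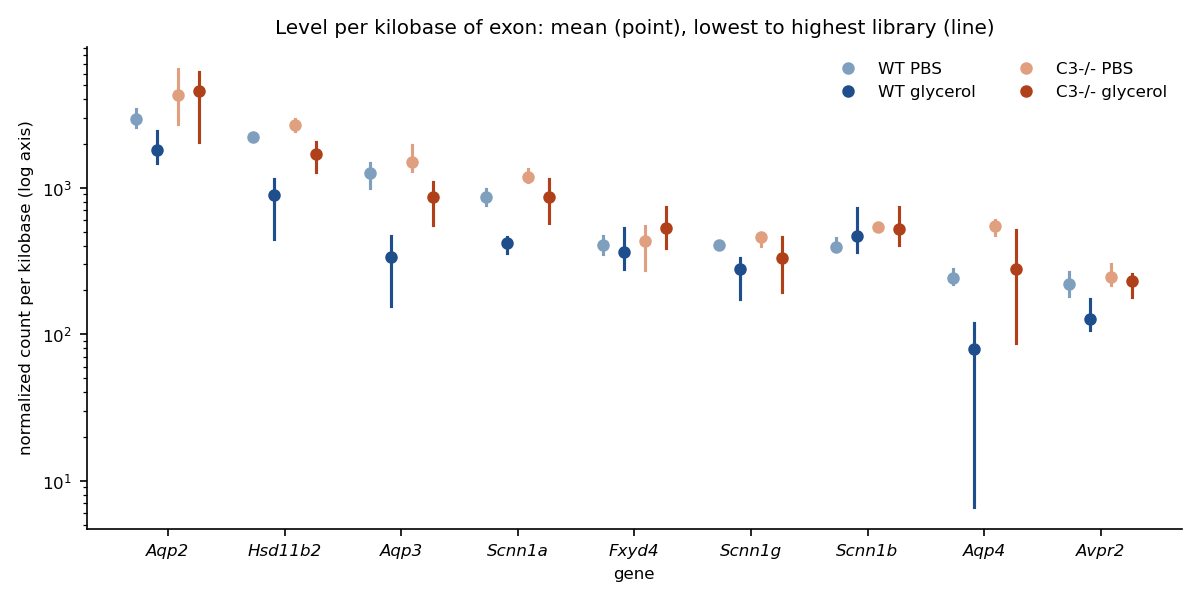
Normalized count per kilobase of exon (log axis) for each gene and group, with the mean as a point and the lowest to highest of 4 libraries as a line. Aqp2 has the highest mean in every group, and the line of Aqp4 in WT after glycerol reaches down to 6.597 in replicate 4.

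Ratios of members within a library, which do not depend on how libraries were scaled, compare the members with each other, and none of 14 tests passed after adjustment. In WT the log2 ratio of Scnn1b to Scnn1a went from -1.77 ± 0.08 (SD, n = 4) after PBS to -0.53 ± 0.62 after glycerol, and the groups did not overlap. The ratio of Aqp3 to Aqp2 went from -0.85 ± 0.2 to -2.13 ± 0.52 and that of Fxyd4 to Aqp2 from -2.37 ± 0.18 to -1.86 ± 0.12, also without overlap. Each of these, and Aqp4 to Aqp2, reached the smallest p that an exact two-sided permutation test of 4 against 4 allows (p = 0.0286), which is 0.08 after adjustment over 14 ratio tests, so none passed. Avpr2 to Aqp2 differed by -0.09 (exact permutation p = 0.371, adjusted 0.473), with -2.84 to -2.54 after PBS and -2.96 to -2.69 after glycerol. Under the C3-/- label Aqp3 to Aqp2 was the only ratio at that smallest p, going from -1.1 ± 0.31 to -1.97 ± 0.53 (exact permutation p = 0.0286, adjusted 0.08).

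**Figure D4:**
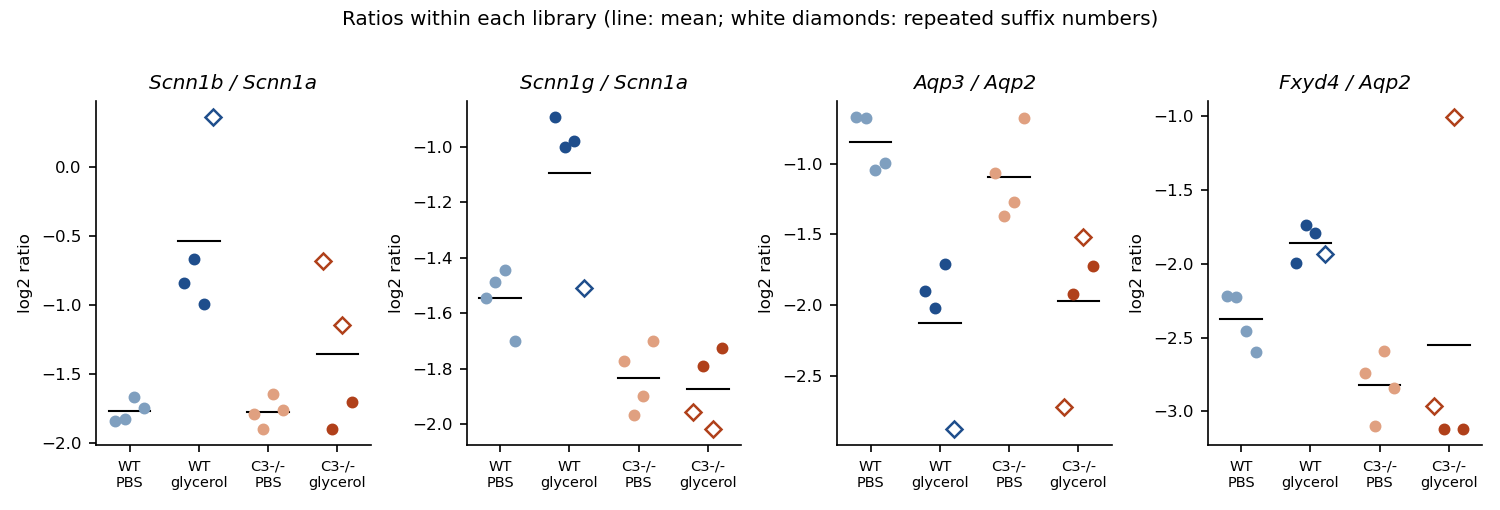
Log2 ratio of a pair of genes within each library (vertical axis), by group, with the mean of 4 libraries as a line and the 3 libraries with repeated numbers as white diamonds. In WT the Scnn1b to Scnn1a ratios after glycerol (-0.99 to 0.37) all lie above those after PBS (-1.84 to -1.66), and the highest is the library with a repeated number.

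Genes listed as acting on these members were counted by list, beside 13.3% of all tested genes called lower and 25.9% in either direction in WT. Whole-kidney RNA does not show which cells their signal comes from, so a change need not lie in principal cells. Of 17 genes of aldosterone and ENaC regulation, 5 fell and 1 rose in WT by limma (median -0.38, against -0.11 over all tested genes), and none passed under the C3-/- label (median -0.4). Under that label 8 of the 17 had an unadjusted limma p below 0.05, as did 4457 of the 18035 tested genes. Within the 13 libraries, where 29.4% of tested genes were called lower in WT, 7 fell and 3 rose in WT (median -0.18), and 2 fell in C3-/- (median -0.1). In either direction, 9925 of 17673 tested genes passed in WT within the 13. Klhl3, the adaptor that directs WNK kinases to degradation, fell from 2013 ± 187 to 406.3 ± 76 in WT (SD, n = 4 each), by 2.32 ± 0.17 on the log2 scale (limma adjusted p = 9.38e-07). Its C3-/- difference was -0.4 ± 0.17 (adjusted p = 0.158), and the difference between the responses passed (1.92 ± 0.24, adjusted p = 0.00268). Wnk1, a kinase that controls sodium and potassium transport, fell by 1.62 ± 0.28 in WT, Usp2, a deubiquitinase, by 1.8 ± 0.37 and Tsc22d3, the aldosterone-induced gene of GILZ, by 1.11 ± 0.23. The remaining call down was Prss8, a channel-activating protease, and the call up was St14, another serine protease, both named after their values were seen. Nr3c2, the mineralocorticoid receptor gene, was at 668.9 ± 63.2 after PBS and 281.1 ± 133 after glycerol in WT, a difference of -1.45 ± 0.54 that did not pass (limma adjusted p = 0.0596) and that was -0.94 and passed within the 13 libraries (1.13e-05). The ENaC-stabilizing kinase gene Sgk1 (-0.4 ± 0.31) and the ENaC ubiquitin ligase gene Nedd4l (0.09 ± 0.23) did not pass in WT.

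Of 20 genes of vasopressin signalling and Aqp2 transcription, 4 fell and 2 rose in WT (median -0.32), and 11 fell and 3 rose within the 13 libraries (median -0.25). The 6 calls over all 16 libraries are a share near the 25.9% of tested genes called in either direction. The 14 calls within the 13 libraries stand beside 9925 of 17673 tested genes called in either direction. Adcy6, an adenylyl cyclase coupled to the V2 receptor, fell by 0.63 ± 0.15 (limma adjusted p = 0.00686), Lrba, a protein kinase A anchor that acts on aquaporin-2, by 0.93 ± 0.21, and Akap7, another such anchor, by 0.82 ± 0.25. Elf3, an epithelial transcription factor of the ETS family, rose by 1.61 ± 0.17, from 543.1 ± 21 to 1668 ± 206.3. The other calls were Gata2, down, and Prkar2a, up, named after their values were seen. Under the C3-/- label Elf3 rose by 0.69 ± 0.17, and Akap7 and Lrba fell. The collecting duct transcription factors Gata3 (-0.15 ± 0.4), Elf5 (0.27 ± 0.46) and Tfcp2l1 (-0.82 ± 0.45) did not pass in WT over all 16 libraries. Within the 13, Gata3 (-0.53, limma adjusted p = 0.0375) and Tfcp2l1 (-0.4, adjusted p = 0.0106) passed as lower, and Elf5 did not (0.63, adjusted p = 0.124).

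Of 8 genes of the potassium channels and sodium pump of these cells, 3 fell in WT (median -1.07) and none passed under the C3-/- label. There 1 of the 8 had an unadjusted limma p below 0.05, as did 4457 of the 18035 tested genes. Within the 13 libraries 6 fell in WT (median -0.66) and 1 fell in C3-/-. Kcnj1, the secretory potassium channel ROMK, which the thick ascending limb also makes, fell by 1.62 ± 0.44, Kcnj16, a basolateral potassium channel subunit, by 1.45 ± 0.45, and the pump beta subunit gene Atp1b1 by 0.9 ± 0.29. Of 7 genes of tonicity response and urea transport, 1 fell in WT, the betaine transporter gene Slc6a12, by 2.14 ± 0.38, and under the C3-/- label 1 rose, the aldose reductase gene Akr1b3, by 1.67 ± 0.28 (limma adjusted p = 0.00248). In WT, 3 of the 7 fell and 1 rose within the 13 libraries. The urea transporter gene Slc14a2 did not pass in WT (0.09 ± 0.57).

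Aquaporins outside the collecting duct principal cell moved in both directions. Of 8 listed, 6 were tested, and in WT 3 fell and 1 rose. Aqp1, of the proximal tubule and thin limb, fell by 2.09 ± 0.47, Aqp11 by 2.32 ± 0.28 and Aqp6, of intercalated cells, by 0.86 ± 0.3. Aqp8 rose by 2.27 ± 0.33, from 13.52 ± 5.07 to 66.93 ± 12.6 normalized counts, and by 1.99 ± 0.33 under the C3-/- label. Of the 5 other FXYD genes tested, Fxyd5 alone passed in WT, with a rise of 2.1 ± 0.42. In WT 2 of these 5 also fell within the 13 libraries, where of the 6 aquaporins 3 fell and 2 rose.

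Markers of the other cells in the sections moved as well. Of 12 intercalated cell markers, 7 fell in WT and none passed under the C3-/- label over all 16 libraries, and 11 and 5 fell within the 13. Their summed normalized count ranged from 18580 to 21820 after PBS and 10850 to 15000 after glycerol in WT, and from 21910 to 25870 and 18090 to 31040 under the label. Rhbg, an ammonium transporter gene of these cells, fell by 1.15 ± 0.12 in WT, and the difference between the responses passed (1.07 ± 0.18, limma adjusted p = 0.012). In WT 8 of 10 proximal tubule markers fell (summed 249000 to 283400 after PBS, 21410 to 98210 after glycerol), as did 4 of 7 thick ascending limb markers (266900 to 297800, then 27040 to 135800) and 4 of 8 distal convoluted and connecting tubule markers (112800 to 130100, then 59890 to 89850). Under the C3-/- label the calls down were 2, 0 and 1 of these lists. The calls down within the 13 libraries were 9, 4 and 6 in WT and 5, 1 and 2 under the label. Of 12 genes listed for collecting duct epithelial identity, 4 rose in WT over all 16 libraries, all keratin genes, and none fell. Krt8 rose by 1.9 ± 0.19 and Krt18 by 2.69 ± 0.35, and the 8 genes that are not keratins did not pass. Over all genes, 2262 of 18035 tested were called higher. Whether the keratins rose in collecting duct cells was not tested. Within the 13, 6 rose and 3 fell (Gata3, Tfcp2l1 and Npnt), where 4736 of 17673 tested genes were called higher. The sum of the 12 ranged from 32680 to 37710 after PBS and 30130 to 49040 after glycerol.

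Of 6 leukocyte markers in the matrix, 4 rose in WT (summed 987.1 to 1144 after PBS, 1297 to 2465 after glycerol). In libraries labelled C3-/- 1 rose (520.8 to 606.5, then 398.4 to 1439). Of 18035 tested genes, 2262 were called higher in WT and 663 under the label. The 13 libraries alone gave 4 up and 1 down in WT, and 2 up under the label. There 4736 and 2213 of 17673 tested genes were called higher. Of 4 stroma markers 2 rose and 1 fell in WT (3224 to 5931, then 6655 to 13060). Urothelium markers, from cells that line the renal pelvis, summed to 357.4 to 431.7 after PBS and 135.1 to 806.3 after glycerol in WT, and to 72.58 to 675.4 and 151.1 to 587.1 under the C3-/- label. None of these markers was at 0 in every library of a group. The part of these markers in the members' differences was not tested.

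The mean of the members' standardized log2 values was lower in WT glycerol libraries (-1.7 to -0.58) than in every other library. It was 0.36 to 1.15 in C3-/- PBS libraries, which overlap the WT PBS (-0.13 to 0.4) and C3-/- glycerol libraries (-0.4 to 0.59). The tested genes whose log2 values were most like this mean over the 16 libraries, among 13764 candidates with a mean of at least 50, were Ank2 (Pearson r = 0.968), Me3 (0.955), Slc25a35 (0.952), Esrrb (0.952), Wscd1 (0.948) and Efhd1 (0.946). Ank2, which encodes a membrane adaptor of the ankyrin family, averaged 427.3 in WT after PBS, 154.7 in WT after glycerol, 553.4 in C3-/- after PBS and 443.8 in C3-/- after glycerol. Esrrb, an orphan nuclear receptor gene, averaged 1210, 289.6, 1943 and 1202 in the same order. The genes most like Aqp2 alone were Abhd6 (r = 0.893), Klhl14 (0.891) and Plekhg1 (0.891). These correlations describe libraries that share group and scaling, and genes are not independent of each other.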

How the data were processed

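Per the labels' protocols, RNA from lysed frozen kidney sections was sequenced with Illumina libraries, 4 per group. The authors deposited a matrix of signal, namely gene read counts that they had normalized (DESeq2, with STAR 2.7.1 and R 3.6.1 on GRCm38, per the submitters' processing notes). The authors' 3 deposited comparison tables hold log2 fold changes with errors, a test score, and a p-value before and after adjustment. The counting program, its strand setting and its handling of multi-mapping reads were not given in the sources used here. Whole multiples of a library's lowest value, within a tolerance of 0.01, made up 1.5% to 2.18% of values, so reads were not recovered, depth is unknown and precision rests on the spread between libraries.

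Here log2(normalized count + 1) was tested with limma 3.58.1 in R 4.3.3, with a mean-variance trend, all 16 libraries and 1 coefficient per group, for genes with at least 10 in at least 4 libraries. Benjamini-Hochberg adjustment covered every tested gene within a contrast. A log2 difference on this scale understates the change of genes with low values. The 4 groups, from the sample titles, gave 5 contrasts. Ratios within a library were compared by exact permutation tests. Alternatives were another pseudocount, filter, scaling, trend, weighting, covariates, a replicate block and leaving out libraries. The calculations were tested on simulated data. Gene positions and merged exons are from GENCODE M21.

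The text names the 9 members, up to 4 genes of each further list with the smallest p over both glycerol contrasts, fixed genes such as Nr3c2, Sgk1 and Havcr1, and the genes most like the members. The members and lists were chosen with earlier results of these data known.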

Additional observations from a re-analysis of the deposited data

Results flagged for a closer look

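In a group of 4 libraries, a library was singled out when its gap to the nearest of the others was above Dixon's 95% critical share of the group's range. Of 36 groups of member values examined, 2 held such a library, and chance gives about 1 in 20. Avpr2 in WT glycerol replicate 2 was at 504.78, against 307.27 to 329.44 in the other libraries of that group. Scnn1b in WT glycerol replicate 4, which has a repeated suffix number, was at 1902.6, against 958.78 to 1077.1 in the others.

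The difference between the glycerol responses passed the limma interaction test for Klhl3 (1.92), Rhbg (1.07) and Slc12a1 (2.55), genes named beside the members, with the smaller fall under the C3-/- label in each. Slc12a1, the sodium-potassium-chloride cotransporter gene of the thick ascending limb, fell by 3.22 ± 0.31 in WT (limma adjusted p = 8.13e-06) and differed by -0.67 ± 0.31 in C3-/- (adjusted p = 0.192).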

How the results depend on the processing

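The 5 calls in WT (glycerol against PBS) and the 5 after glycerol (C3-/- against WT) kept their direction in every fit run. Other pseudocounts, filters, scalings and the trend moved no count of called members by over 1.5 times. Without the 3 libraries of repeated suffix numbers, limma called 1 member for glycerol against PBS in C3-/-, 4 between genotypes after PBS, 8 after glycerol and 4 for the difference between the responses. With array weights, whose fits stopped before full convergence, these counts were 3, 5, 8 and 6. With terms for suffix numbers and Y-linked transcripts the last was 6, and with only the groups compared in the fit, 4 passed after PBS and 0 after glycerol. Leaving out single libraries gave 0 to 1 for glycerol in C3-/-, the 1 being Scnn1a without C3-/- glycerol replicate 2. Over all tested genes, limma called 4666, 1016, 402, 2025 and 79 in the 5 contrasts, and 9925, 4118, 3448, 5373 and 1845 without the 3 libraries of repeated numbers. In the same order these were 8886, 3393, 628, 6068 and 1580 with both terms and 10902, 5589, 6869, 6439 and 3225 with array weights. With only the groups compared in the fit, 298 passed for glycerol in C3-/-, 4472 after PBS and 278 after glycerol. The replicate block gave 632 for glycerol in C3-/- and 41 for the difference between the responses, and a pseudocount of 8 gave 141 for the latter. Leaving out single libraries gave 3429 to 4776, 491 to 1582, 211 to 544, 1361 to 4367 and 38 to 211.

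Deviations from group means showed no pairing by replicate number: of 16 same-numbered pairs 3 correlated over 0.1 (-0.692 to 0.385). Libraries that stand apart within the glycerol groups enter these correlations, so a pairing is not excluded. With the replicate block 4 members passed in WT, with Aqp4 lost (adjusted p = 0.0633), and 0, 0, 5 and 0 in the other contrasts.

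Direction changed only for uncalled values. Without the libraries of repeated numbers Scnn1b in WT was -0.03 (-0.03 with array weights), Fxyd4 in C3-/- -0.02 (-0.09 with array weights), and the C3-/- ratios were -0.03 (Scnn1b to Scnn1a), 0.08 (Scnn1g to Scnn1a) and -0.30 (Fxyd4 to Aqp2). With the covariates Aqp4 (0.05) and Avpr2 (0.07) in C3-/-, Aqp2 (-0.14), Avpr2 (-0.06) and Fxyd4 (-0.18) after PBS and Scnn1b after glycerol (-0.09) changed sign. Leaving out single libraries gave ranges across 0. For glycerol in WT, Scnn1b ran from -0.03 to 0.30. For glycerol in C3-/-, Aqp2 ran from -0.15 to 0.39, Avpr2 from -0.18 to 0.00 and Scnn1b from -0.26 to 0.03, with the Scnn1g to Scnn1a ratio from -0.09 to 0.01 and the Fxyd4 to Aqp2 ratio from -0.25 to 0.45. Between genotypes Fxyd4 after PBS ran from -0.09 to 0.24 and Scnn1b after glycerol from 0.00 to 0.40. For the difference between the responses Aqp4 ran from -0.07 to 1.36 and Scnn1g from -0.16 to 0.29. The causes were not tested.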

Other observations

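Hsd11b1, which encodes the enzyme that regenerates active glucocorticoid and so opposes the product of Hsd11b2, was lower under the C3-/- label after PBS, at 741.2 ± 798 against 3400 ± 412 normalized counts in WT (SD, n = 4 each), a log2 difference of -2.68 ± 0.66 (limma adjusted p = 0.0462). Neither glycerol response of Hsd11b1 passed over all 16 libraries (-0.74 ± 0.66 in WT, limma adjusted p = 0.426, and 0.59 ± 0.66 under the label, adjusted p = 0.555), and both passed as lower with terms for repeated numbers and Y-linked transcripts (-1.08, adjusted p = 3.12e-05, and -0.65, adjusted p = 0.0114). Slc6a12, the betaine transporter gene, was higher under the C3-/- label after PBS, at 324 ± 81.6 against 63.2 ± 31, a log2 difference of 2.44 ± 0.38 (limma adjusted p = 0.00198). The genotype groups after PBS also differ in how many libraries carry Y-linked transcripts. With both terms the difference after PBS was -0.99 ± 0.17 for Hsd11b1 (limma adjusted p = 0.00491) and 2.1 ± 0.46 for Slc6a12 (adjusted p = 0.0197).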
